A study of Mus musculus with 14 samples.

Results

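9 long noncoding RNA genes that neural tissue is known to transcribe abundantly were followed in the embryonic hippocampus of a pair of mouse models of Down syndrome. The genes were Meg3, Rian, Mirg, Malat1, Neat1, Miat, Snhg11, Sox2ot and Kcnq1ot1. A locus of the gene table was assigned to a gene when the deposited transcript map gave at least 1 of its transcripts as equal to, or as sharing a splice junction with, a known transcript of that gene. By this rule 6 of the 9 genes were found among 49006 loci matched to the map: Meg3, Rian, Mirg, Miat, Snhg11 and Sox2ot. Malat1 and Kcnq1ot1 had no such locus. For each, a locus was present whose transcripts overlap exons of the known transcript without matching its structure, and these loci are reported as overlapping loci outside the rule. The map also gave the name Malat1 to low loci coded as unknown, with means of 10.8, 30.5 and 39.0 normalized fragments. It gave the name Rian to a higher locus of that code, with a mean of 674 (515 to 921). These loci were not followed further. Neat1 was found among the matched loci neither by the rule nor as such an overlapping locus, so no value is given for it.

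The 14 libraries came from hippocampi dissected at E16 to E18. They comprised 3 libraries of 189N3 mice, which carry an extra copy of Dyrk1a on a bacterial artificial chromosome transgene with flanking sequence of its locus, and 3 of their wild-type littermates. A further 4 came from Dp(16)1Yey/+ mice, which carry a duplication of the segment of chromosome 16 from Lipi to Zfp295 that is syntenic to human chromosome 21 and includes Dyrk1a, and 4 from their wild-type littermates. Heterozygous carriers were crossed with C57BL6 mice for the study's neuron cultures. The methods give as many embryos per genotype as there are libraries, but do not tie a library to an embryo, so p-values measure the spread between these libraries. Replicate numbers start at 0, as in the labels. Values are normalized fragments: the fragments of a locus divided by 1 size factor per library, from 20809135 to 29098454 fragments per library.

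Long noncoding RNAs act as RNA and are not known for an encoded protein. Meg3, Rian and Mirg lie one after the other on the same strand of the Dlk1-Dio3 imprinted domain, are transcribed from the maternal chromosome, and carry microRNAs and, in Rian, small nucleolar RNAs. Kcnq1ot1 is transcribed from the paternal chromosome and silences neighbouring genes in cis. Malat1 gathers in nuclear speckles, where splicing factors are stored, and Neat1 builds paraspeckles. Miat, also called Gomafu, forms nuclear bodies in neurons and binds splicing factors, Sox2ot spans the gene of the progenitor factor Sox2, and Snhg11 is a neuronal host gene of small nucleolar RNAs.

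In GENCODE vM21 on GRCm38, the same assembly as mm10, Meg3 lies on chromosome 12 from 109541001 to 109571726, Rian from 109603940 to 109661716 and Mirg from 109729764 to 109749460, all on the plus strand. Miat lies on chromosome 5 from 112213228 to 112229395 on the minus strand, Snhg11 on chromosome 2 from 158375638 to 158386145, and Sox2ot on chromosome 3 from 34104270 to 34682619, the latter pair on the plus strand. Malat1 is on chromosome 19 from 5795690 to 5802672, and Kcnq1ot1 on chromosome 7 from 143203458 to 143296549, both on the minus strand. The annotation classes Meg3, Mirg, Miat and Malat1 as lincRNA, Rian and Sox2ot as processed transcripts and Kcnq1ot1 as antisense, whereas it classes Snhg11 as protein coding. No member lies on chromosome 16, so none is inside either duplicated segment.

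The microRNA content of the imprinted loci was read from RefSeq (GRCm38.p6), because it is the clearest sequence feature by which the 3 neighbours differ. Within the gene span and on its strand, Meg3 held 1 hairpin, Rian 3 and Mirg 14, which give 3, 6 and 26 mature microRNAs. Sox2ot held 1 hairpin with 1 mature microRNA, and the other genes held none. The mature microRNAs themselves were not measured in these libraries. Examples follow, with the seed (bases 2 to 8) in capitals. The first is from Meg3, the next from Rian, and the last 3 from Mirg. Of these, miR-134-5p is known for its action in dendrites, and miR-453 and miR-496a-5p are the only mature microRNAs of these genes that share a seed.
mmu-miR-770-5p: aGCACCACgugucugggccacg
mmu-miR-370-3p: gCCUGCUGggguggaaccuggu
mmu-miR-134-5p: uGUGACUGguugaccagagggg
mmu-miR-453: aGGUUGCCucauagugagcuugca
mmu-miR-496a-5p: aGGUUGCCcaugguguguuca

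Promoter windows, from 250 bases before to 50 after the RefSeq start, were available for 7 of the loci. Those of Meg3, Rian, Malat1 and Kcnq1ot1 are shown because the last 3 of these varied most closely together, or in opposite directions, across libraries, while Meg3 did not vary with its neighbour Rian. Capitals mark letters found on either strand. The CCAAT box occurs in 37.4% of 32851 promoter windows. The core of the cyclic AMP response element, spelled TGACG, occurs in 20.8%. The box spelled TATAAA occurs in 13.6%. Matches that overlap were counted on each strand. A match describes the letters only.
Meg3, chr12:109540746-109541045, plus strand: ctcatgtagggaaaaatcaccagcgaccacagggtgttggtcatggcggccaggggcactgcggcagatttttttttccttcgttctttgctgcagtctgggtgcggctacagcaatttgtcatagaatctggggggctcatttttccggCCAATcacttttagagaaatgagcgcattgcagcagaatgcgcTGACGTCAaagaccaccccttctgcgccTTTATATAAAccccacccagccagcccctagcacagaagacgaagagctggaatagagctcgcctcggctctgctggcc
Rian, chr12:109603695-109603994, plus strand: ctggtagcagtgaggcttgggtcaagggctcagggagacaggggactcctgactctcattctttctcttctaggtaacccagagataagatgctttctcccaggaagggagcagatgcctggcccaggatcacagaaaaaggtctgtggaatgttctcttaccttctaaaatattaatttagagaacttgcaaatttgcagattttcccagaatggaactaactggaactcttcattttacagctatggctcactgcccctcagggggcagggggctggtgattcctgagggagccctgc
Malat1, chr19:5802623-5802922, minus strand: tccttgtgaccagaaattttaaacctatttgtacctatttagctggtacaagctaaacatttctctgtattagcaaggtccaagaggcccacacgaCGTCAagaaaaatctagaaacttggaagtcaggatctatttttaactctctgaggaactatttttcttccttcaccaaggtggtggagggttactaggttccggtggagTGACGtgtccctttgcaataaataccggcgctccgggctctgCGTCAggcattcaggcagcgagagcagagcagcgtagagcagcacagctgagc
Kcnq1ot1, chr7:143296498-143296797, minus strand: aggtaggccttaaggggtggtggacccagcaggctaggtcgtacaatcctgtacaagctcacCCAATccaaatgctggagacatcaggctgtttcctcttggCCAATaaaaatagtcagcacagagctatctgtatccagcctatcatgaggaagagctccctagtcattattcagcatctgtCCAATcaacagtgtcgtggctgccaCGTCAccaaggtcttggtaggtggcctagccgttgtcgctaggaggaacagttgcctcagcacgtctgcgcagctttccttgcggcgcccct

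The Meg3 window held 1 CCAAT box. Its core of the cyclic AMP response element was read on both strands of a palindrome, as was its TATA box in a run that overlaps itself. The Rian window held none of these letters and 0 CG dinucleotides, against a median of 7 over all windows. The Malat1 window had 3 matches to the response element core, and the Kcnq1ot1 window had 3 CCAAT boxes and 1 such core. The windows of Miat and Snhg11, with 25 and 21 CG dinucleotides, held none of the 3 motifs, and that of Mirg held 1 CCAAT. The Mirg window runs from 109734731 to 109735030 and so lies inside the GENCODE span of the gene, not at its start. Meg3 has 2 RefSeq windows, of which the first by coordinate is shown.

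Levels differed widely between the genes when divided by the summed exon length of GENCODE. The locus overlapping Malat1 was by far the highest, with a median level of 16602 normalized fragments per kb over the 14 libraries (11846 to 21326). Rian followed with 648 (412 to 1087), then Miat with 379 (160 to 734) and Meg3 with 221 (117 to 325). The ranges of Rian and Miat overlapped, as did those of Miat and Meg3, so their order is not fixed across libraries. The locus overlapping Kcnq1ot1 stood at 89.6 (49.3 to 116), Sox2ot at 75.2 (54.3 to 92.2), Snhg11 at 51.8 (20.3 to 117) and Mirg at 36.9 (22.9 to 44.4). From Kcnq1ot1 to Mirg the range of each overlapped with that of the next. The ranges of Malat1 and Rian did not overlap, and those of Meg3 and Kcnq1ot1 only just did not. Exon lengths are those of the annotation and may differ from those of the assembled loci.

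**Figure D1:**
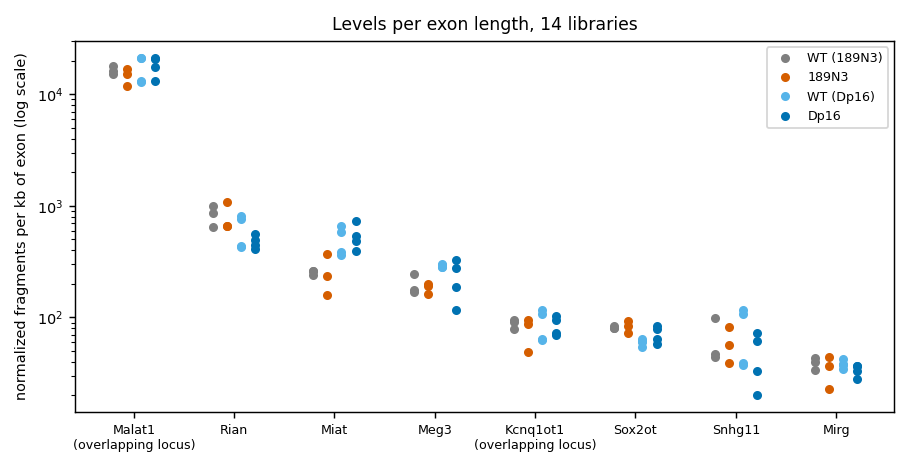
Normalized fragments per kb of GENCODE exon (y axis, log scale) for the 8 loci, ordered by median, with 1 point per library coloured by group. The Malat1 overlapping locus lies above 11846 in all libraries, whereas the other loci lie between 20.3 and 1087.

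The Dyrk1a level separated the 189N3 libraries (3938 to 5877 normalized fragments) from their littermates (2126 to 2977). In Dp(16)1Yey/+ mice the median log2 ratio of 65 named genes of the duplicated segment to the littermate mean was between 0.41 and 0.68 in replicates 0, 2 and 3 but 0.16 in the library labelled Dp(16)1Yey replicate 1, whose Dyrk1a value of 2124 was below all its littermates. The same measure was -0.08, -0.09 and 0.32 in 189N3 replicates 0 to 2, whose line does not duplicate the segment. The Dp(16)1Yey/+ littermates formed nearly alike pairs, replicates 0 with 1 and 2 with 3, which differed by 1.65 and 2.0 times counting noise against 31.5 to 36.5 times between the pairs. Of the marker lists, all 9 neuronal and all 6 hippocampal genes were named. Their summed values ran from 104584 to 211679 and from 3655 to 11571. The 4 erythroid genes summed to 13751 to 21965 in 189N3 libraries and 33452 to 53934 in their littermates, without overlap. Of the marker genes of 10 cell types and regions none was called, while all 4 erythroid and all 4 tested skin genes were lower in 189N3 mice at an unadjusted p-value under 0.05 (smallest adjusted p = 0.139 and 0.301 in limma). In those mice all 9 neuronal genes (median log2 fold change 0.18) and all 5 genes of oligodendrocyte precursors (median 0.55) had positive log2 fold changes. There, 8 of 9 progenitor genes had negative ones (median -0.11). In Dp(16)1Yey/+ mice all 4 erythroid genes had positive log2 fold changes (median 1.23), all 6 hippocampal genes negative ones (median -0.42), as had all 5 genes of oligodendrocyte precursors (median -0.53) and 4 of 5 endothelial genes (median -0.45). Of the tested striatal, choroid plexus and microglial genes, 4 of 5 each were also negative (medians -0.42, -0.23 and -0.14). The summed hippocampal markers there ran from 3655 to 10806, against 4767 to 11571 in the littermates. The part of these differences in the results that follow was not tested, and in bulk tissue fewer cells of a type and less RNA per cell cannot be told apart.

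No member passed the test in either model. Meg3, the first gene of the imprinted cluster, had 3199, 4419 and 3083 normalized fragments in replicates 0 to 2 of the 189N3 littermates and 3498, 3589 and 2917 in the 189N3 libraries. The 189N3 values lay within or just below the littermate range. The log2 fold change was -0.08 (standard error, SE, 0.23, 95% interval -0.58 to 0.41, adjusted p = 1.00 in limma). In the Dp(16)1Yey/+ littermates Meg3 was nearly constant, at 5366, 5166, 5101 and 5402 in replicates 0 to 3. The Dp(16)1Yey/+ libraries spread far more widely, with 5883, 2124, 3377 and 5073. Replicate 0 lay above all littermates and the other 3 below them. The log2 fold change was -0.46 (SE 0.27, interval -1.05 to 0.14, adjusted p = 0.909), and it ranged from -0.67 without replicate 0 to -0.18 without replicate 1.

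Rian, the second gene of the cluster, had 11724, 18064 and 15850 in the 189N3 littermates and 11966, 11924 and 19816 in the 189N3 libraries. The highest value of the series was that of 189N3 replicate 2. The log2 fold change was -0.08 (SE 0.26, adjusted p = 1.00). In the Dp(16)1Yey/+ littermates Rian had 7837 and 7898 in replicates 0 and 1 but 14837 and 13806 in replicates 2 and 3. The Dp(16)1Yey/+ libraries had 10292, 9099, 7514 and 8113 and fell between or just below these pairs. The log2 fold change was -0.29 (SE 0.23, interval -0.80 to 0.22, adjusted p = 0.909).

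Mirg, which hosts the largest group of microRNAs, had the lowest median level per kb. Its values varied most in the 189N3 libraries (SD of log2 values 0.49) and less in the other groups (0.12 to 0.19). It had 246, 290 and 318 in the 189N3 littermates and 167, 324 and 270 in the 189N3 libraries, with a log2 fold change of -0.21 (SE 0.28). It had 277, 253, 310 and 273 in the Dp(16)1Yey/+ littermates and 239, 268, 267 and 204 in the Dp(16)1Yey/+ libraries, of which 2 lay below all littermates, with a log2 fold change of -0.19 (SE 0.16). The groups overlapped in each model, and the adjusted p-values were 1.00 and 0.909.

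Because Meg3, Rian and Mirg are neighbours on 1 strand, their ratios within a library, which do not depend on its size factor, were also compared. The ratio of Rian to Meg3 was 3.66, 4.09 and 5.14 in the 189N3 littermates and 3.42, 3.32 and 6.79 in 189N3 libraries. It was 1.46, 1.53, 2.91 and 2.56 in the Dp(16)1Yey/+ littermates and 1.75, 4.28, 2.23 and 1.60 in Dp(16)1Yey/+ libraries. The ratio was thus highest, within its model, in 189N3 replicate 2 and in the library labelled Dp(16)1Yey replicate 1. The latter also had the highest ratio of Mirg to Meg3 (0.126, against 0.0403 to 0.0792 in the other 3). Both ratios divide by Meg3, whose value in that library, 2124, was the lowest of the 14. The mean log2 ratio of Rian to Meg3 differed by 0.00 in 189N3 (exact permutation p = 1, two-sided) and by 0.17 in Dp(16)1Yey/+ mice (exact permutation p = 0.714). That of Mirg to Meg3 differed by -0.13 (exact permutation p = 0.80) and 0.27 (exact permutation p = 0.514). After Benjamini-Hochberg adjustment over these 4 tests all values were 1. The smallest p-value that these designs allow is 0.10 for 3 against 3 libraries and 0.0286 for 4 against 4. Even at these minima no adjusted value over the 4 tests could fall under 0.05. The adjusted values therefore cannot decide whether a ratio changed.

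Miat, a nuclear RNA of neurons, had 2426, 2402 and 2214 in the 189N3 littermates and 3441, 2207 and 1483 in the 189N3 libraries. The littermates were alike, while the 189N3 libraries stood on either side of them, a log2 fold change of -0.07 (SE 0.28, adjusted p = 1.00). It had 6118, 5468, 3365 and 3599 in the Dp(16)1Yey/+ littermates and 4953, 3640, 4545 and 6823 in the Dp(16)1Yey/+ libraries. The groups overlapped, and the log2 fold change was 0.12 (SE 0.24, interval -0.42 to 0.65, adjusted p = 0.936).

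Snhg11, a small nucleolar RNA host gene, was the most variable member. It had 373, 838 and 405 in the 189N3 littermates and 330, 478 and 699 in the 189N3 libraries, a log2 fold change of -0.07 (SE 0.34, adjusted p = 1.00). In the Dp(16)1Yey/+ littermates it had 320 and 333 in replicates 0 and 1 against 923 and 998 in replicates 2 and 3. The Dp(16)1Yey/+ libraries had 622, 173, 285 and 520, of which 2 lay below all littermates and none above. Its log2 fold change there, the most negative of the members, was -0.66 (SE 0.47, interval -1.68 to 0.37, adjusted p = 0.909), an interval that leaves room for a large fall or a small rise.

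Sox2ot, which overlaps Sox2, was the steadiest member. It had 943, 977 and 933 in the 189N3 littermates and 835, 964 and 1069 in the 189N3 libraries, a log2 fold change of 0.00 (SE 0.22, interval -0.48 to 0.48, adjusted p = 1.00). It had 714, 629, 705 and 751 in the Dp(16)1Yey/+ littermates and 740, 972, 908 and 665 in the Dp(16)1Yey/+ libraries. Replicates 1 and 2 lay above all littermates and the other 2 within their range, a log2 fold change of 0.22 (SE 0.17, interval -0.15 to 0.58, adjusted p = 0.909).

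**Figure D2:**
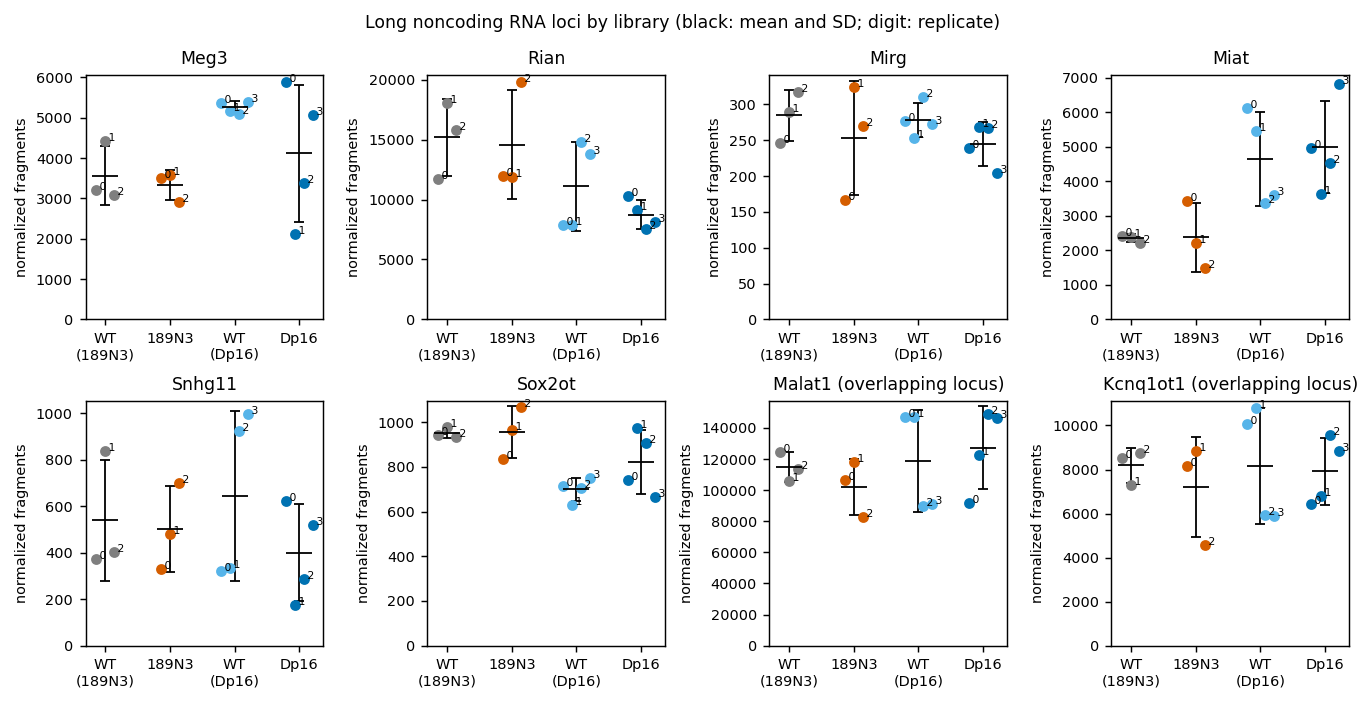
Normalized fragments (y axis, from 0) of the 8 loci in each library, with the replicate number beside the point and the mean and SD in black, for both models (Dp16 stands for Dp(16)1Yey/+) and their wild-type littermates (WT). The littermates of Dp(16)1Yey/+ mice split into pairs in Rian, Snhg11, Miat and the loci overlapping Malat1 and Kcnq1ot1 but not in Meg3, where they lie between 5101 and 5402.

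The locus overlapping Malat1 had 124762, 105793 and 113763 normalized fragments in the 189N3 littermates and 106251, 118098 and 82718 in the 189N3 libraries. It had 147055, 146908, 89905 and 91010 in the Dp(16)1Yey/+ littermates and 91763, 122913, 148923 and 146122 in the Dp(16)1Yey/+ libraries. Values near the lowest and the highest littermates appeared among the Dp(16)1Yey/+ libraries too. The log2 fold changes were -0.18 (SE 0.22) and 0.12 (SE 0.22), with adjusted p-values of 1.00 and 0.930, and the latter was -0.20 with quantile normalization. The locus overlapping Kcnq1ot1 ran alongside, with 8541, 7277 and 8762 in the 189N3 littermates and 8145, 8829 and 4592 in the 189N3 libraries. It had 10083, 10799, 5927 and 5877 in the Dp(16)1Yey/+ littermates and 6434, 6787, 9569 and 8856 in the Dp(16)1Yey/+ libraries, all within the littermate range. Its log2 fold changes were -0.24 (SE 0.26, adjusted p = 1.00) and -0.01 (SE 0.24, adjusted p = 0.995).

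Over all loci tested, limma called 0 of 35899 in 189N3 mice (0%) and 0 of 36024 in Dp(16)1Yey/+ mice (0%), against 672 (1.87%) and 1273 (3.53%) with an unadjusted p-value under 0.05. Of the 8 member and overlapping loci, 0 were called and 0 had an unadjusted p-value under 0.05 in either model, and 0 were called by edgeR or DESeq2. The groups of no member separated fully, as those of 4.98% and 2.45% of all loci did. The difference of the genotype effect between the models was also tested. It called 0 of 36045 loci (0%, with 2.66% at an unadjusted p-value under 0.05) and 0 of the 8, whose estimates ran from -0.59 (SE 0.69) for Snhg11 to 0.30 (SE 0.31) for the locus overlapping Malat1. The latter was -0.08 with quantile normalization. With 1 library left out, that of Snhg11 ranged from -0.96 to -0.24 and that of Meg3 from -0.58 to -0.09. Averaging the nearly alike littermates left the estimates in Dp(16)1Yey/+ mice unchanged to within 0.01. It lowered the number of loci with an unadjusted p-value under 0.05 in limma from 1273 to 265. Standard errors, intervals and p-values printed for that model count every littermate library as independent. They would be too narrow or too small if a nearly alike pair were 1 sample, which was not tested. Without the library labelled Dp(16)1Yey replicate 1, Rian stood at -0.31, Mirg at -0.24, Miat at 0.26, Snhg11 at -0.31, Sox2ot at 0.13 and the loci overlapping Malat1 and Kcnq1ot1 at 0.13 and 0.06. Without 189N3 replicate 2, Rian stood at -0.33, Mirg at -0.28, Miat at 0.23, Snhg11 at -0.34, Sox2ot at -0.08, Meg3 at 0.0099 and the loci overlapping Malat1 and Kcnq1ot1 at -0.03 and 0.05 in 189N3 mice. No member was called in either case. The intervals limit these statements. For Meg3 in Dp(16)1Yey/+ mice a fall by 1.05 on the log2 scale would still lie within the interval, whereas for Mirg and Sox2ot the intervals in that model ended at -0.55 and 0.58.

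**Figure D3:**
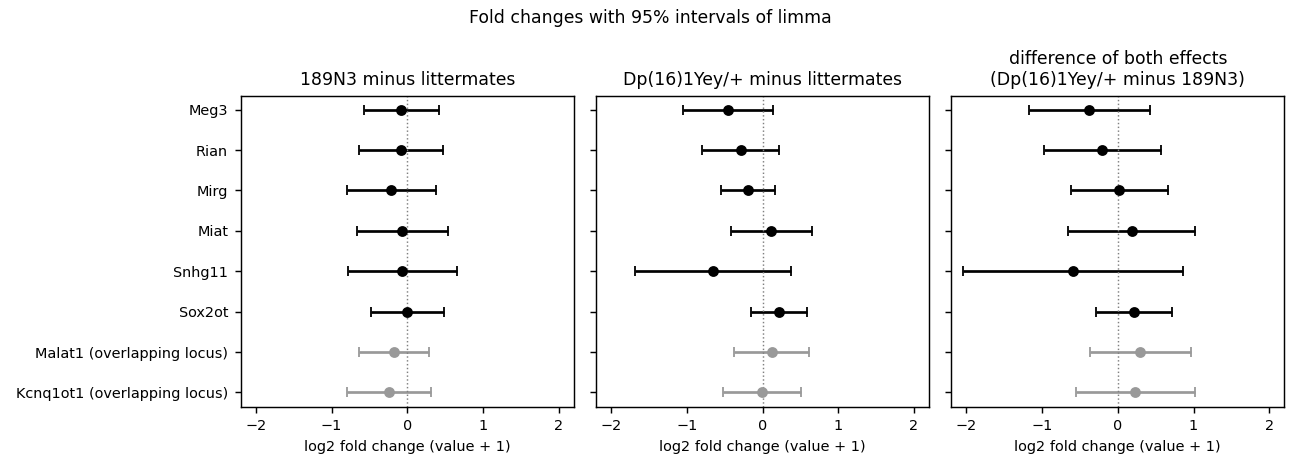
Log2 fold change of log2(value + 1) with the 95% interval of limma for the 6 members (black) and the overlapping loci (grey), in 189N3 mice, in Dp(16)1Yey/+ mice, and as the difference of both effects. All intervals include 0, and the widest is that of Snhg11.

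The wild-type littermates of the pair of lines are given side by side as a description, since line, breeding and preparation cannot be told apart. Meg3 had 3083 to 4419 in the 189N3 littermates and 5101 to 5402 in those of Dp(16)1Yey/+ mice. Miat had 2214 to 2426 and 3365 to 6118, and Sox2ot, in the other direction, 933 to 977 and 629 to 751. In these 3 genes the littermate groups did not overlap, and in the other 5 loci they did. Among all 36045 loci, 25.4% did not overlap in this way.

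The spread within groups set the members apart from each other. The pooled within-group SD of log2 values was 0.77 for Snhg11, larger than in 98.4% of 7924 loci whose mean was within a factor of 2 of its own. It was 0.17 for Sox2ot, larger than in only 10.4% of 7050 such loci. Meg3, Rian and Miat had SDs of 0.39, 0.38 and 0.42, and Mirg of 0.26. The loci overlapping Malat1 and Kcnq1ot1 had 0.31 and 0.39. In Snhg11 the highest library exceeded the lowest 5.78-fold, in Sox2ot 1.70-fold.

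The highest and lowest values of several members fell in the same libraries. Between the littermate pairs of Dp(16)1Yey/+ mice, replicates 2 and 3 were higher than 0 and 1 by 2.93-fold in Snhg11 and 1.82-fold in Rian. They were lower by 1.66-fold in Miat, 1.62-fold in the locus overlapping Malat1 and 1.77-fold in that overlapping Kcnq1ot1. The median fold over all 36045 loci, in either direction, was 1.32. Meg3, Mirg and Sox2ot differed by less than this, at 1.00-fold, 1.10-fold and 1.08-fold. The same pairs differed in composition. Loci without a gene name took 32.8% and 33.6% of normalized fragments in replicates 0 and 1 but 25.3% and 25.0% in replicates 2 and 3. Loci coded as antisense took 23.1% and 23.6% against 16.8% in both. Summed striatal markers were 134 and 139 against 1285 and 1312, hippocampal markers 11571 and 10963 against 4767 and 5405, and neuronal markers 104699 and 104584 against 142643 and 143413. The part of these values in the members' levels was not tested.

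189N3 replicate 2 stood apart in the same sense. It had the highest Rian value of the 14 libraries and the lowest values of Miat and of the loci overlapping Malat1 and Kcnq1ot1. It also had the smallest share of fragments in loci without a gene name (18.0%, against 24.3% to 37.8% in the others). The same held for antisense-coded loci (11.3%) and intron-coded loci (2.42%). Its marker sums were the highest of the 14 libraries for neurons (211679), oligodendrocyte precursors (2221), endothelial cells (2903) and microglia (1110). Those of the other marker lists were highest in other libraries. At the other end, Dp(16)1Yey replicate 3 had the largest unnamed share (37.8%) and the highest Miat value. Its values of Rian and of the loci overlapping Malat1 and Kcnq1ot1 were not the extremes of the series. Rian had 8113 there (lowest 7514), the locus overlapping Malat1 146122 (highest 148923) and that overlapping Kcnq1ot1 8856 (highest 10799).

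**Figure D4:**
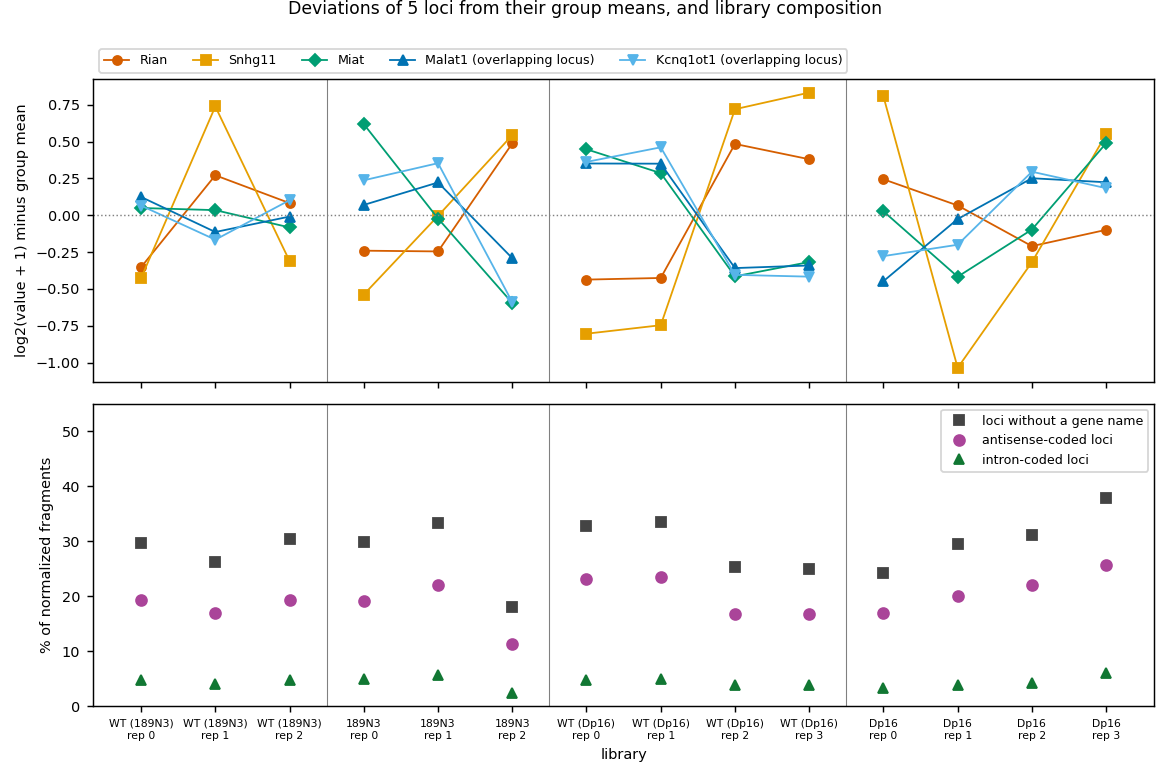
Upper panel: log2(value + 1) minus the group mean for Rian, Snhg11, Miat and the loci overlapping Malat1 and Kcnq1ot1, by library, with lines joining libraries of a group for legibility only. Lower panel: percent of normalized fragments in loci without a gene name, antisense-coded and intron-coded loci. In 189N3 replicate 2, where Rian and Snhg11 lie above their group means and the other 3 below, the unnamed share is 18.0%.

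As a description of how the 8 loci varied together, Pearson's r was taken over the 14 libraries after centring on the group means. The points share libraries and composition, and the nearly alike littermates count as 2 points each. The loci overlapping Malat1 and Kcnq1ot1 rose and fell together (r = 0.92). Rian ran opposite to them (r = -0.92 and -0.93) and with Snhg11 (r = 0.75). With the nearly alike littermates averaged to 12 points these values were 0.90, -0.89, -0.92 and 0.69, and without 189N3 replicate 2 they were 0.95, -0.91, -0.91 and 0.74, both alternatives having been chosen after seeing the data. Neighbours in the imprinted cluster did not vary together in this way, with r = 0.05 for Meg3 and Rian, 0.32 for Rian and Mirg and -0.27 for Meg3 and Mirg. Meg3 varied most nearly with Snhg11 (r = 0.62), and Sox2ot opposite to Miat (r = -0.77).

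The named genes whose pattern was most like that of each member were sought among 11238 named loci with a mean of at least 100, by the same measure over the 14 libraries. With so many candidates and 14 points, high values are found for any gene. For Meg3 they were the phosphofructokinase gene Pfkp (r = 0.96), the calcium channel gene Cacna1d (r = 0.90) and DQ725208 (r = 0.87). For Rian they were Tusc3 (r = 0.99), Fam169a (r = 0.98) and Chd3os (r = 0.98), and for Mirg the potassium channel gene Kcnt2 (r = 0.93), Lnp (r = 0.87) and Nt5m (r = 0.86). For Miat they were AK140147 (r = 0.96), 4930579G18Rik (r = 0.94) and Leng8 (r = 0.93). Snhg11 was followed most closely by the neuronal adhesion gene Cntnap5a (r = 0.98), the kainate receptor gene Grik1 (r = 0.98) and Resp18 (r = 0.97). Sox2ot was followed by Id4 (r = 0.94), an inhibitor of differentiation expressed in progenitors, Foxred1 (r = 0.93) and Rwdd3 (r = 0.92). The nearest to the locus overlapping Malat1 were 9530091C08Rik (r = 0.99), AK006560 (r = 0.97) and Gm15412 (r = 0.97), and to that overlapping Kcnq1ot1 AK141565 (r = 0.98), AK015545 (r = 0.97) and BC065397 (r = 0.96).

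Isoforms were estimated by the authors from the fragments of each locus. Meg3 had 7, of which 6 had a mean of at least 10, and its dominant form uc007pau.3 took a median of 63.2% of the locus (57.2% to 67.6% over the 14 libraries), followed by uc007pap.2 with 19.4% (16.99% to 21.5%). This order held in all libraries although the total of Meg3 varied 2.77-fold. By group the dominant form took 66.3% ± 1.12 in 189N3 and 64.5% ± 0.999 in their littermates (SD, n = 3), and 61.4% ± 2.48 in Dp(16)1Yey/+ mice and 59.7% ± 2.33 in theirs (SD, n = 4). In Sox2ot the form uc029ukx.1 took 61.7% (50.5% to 71.5%) and in Snhg11 uc008nqd.1 took 60.2% (44.1% to 71.9%). Rian was led by a form sharing junctions with uc011ysp.1 at 47.3% (40.2% to 53.2%). In Mirg 4 forms had medians between 19.1% and 30.1%, with wide ranges, and the largest of 14 forms of Miat took 38.1% (2.82% to 57.5%). Estimates of such low or similar forms are uncertain.

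Of isoforms of the 8 loci, 0 of 42 tested were called in 189N3 mice and 0 of 41 in Dp(16)1Yey/+ mice, where limma called 22 of 60141 (0.0366%) and 13 of 60652 (0.0214%) over the whole isoform table. An unadjusted p-value under 0.05 was reached by 3 in 189N3 mice and by 0 in Dp(16)1Yey/+ mice, where it was reached by 2.56% and 3.48% of all isoforms. These 3 were a form of Mirg sharing junctions with uc007pbd.2 (log2 fold change -1.02, SE 0.30) and 2 forms of the locus overlapping Kcnq1ot1 (-1.39, SE 0.33, and 4.61, SE 1.30). All had an adjusted p-value of 1.00, and none is called changed. The form with 4.61 took a median of 0.84% of its locus, with means of 198 in 189N3 mice and 17.5 in their littermates. Its estimate is uncertain at such low values.

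Transcripts coded as antisense accompanied several members. The kit was stranded, whereas the strand setting of the counting is not given in the sources used here, so reads of a gene and its antisense partner may not be fully separated. Antisense to Rian, 2 loci had 2829 to 4808 and 1910 to 2994 normalized fragments, with r of -0.01 and 0.33 to Rian. Antisense to Mirg, a locus had 365 to 1038, above Mirg itself in mean (703 against 265), with r = 0.81, and another had 58.1 to 193 with r = 0.26. A locus antisense to Miat had 194 to 775 with r = 0.92, and 1 antisense to Meg3 146 to 422 with r = 0.68. Their adjusted p-values were at least 0.908 in both models.

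The other genes of the pathways were taken from lists written with earlier results of these data known, and no gene of these lists was called in either model. Of 47 other long noncoding RNAs 29 were named and tested. In 189N3 mice 10 were higher and 19 lower, 1 with an unadjusted p-value under 0.05 (median log2 fold change -0.06, against -0.04 over all loci). The smallest p-values were those of Rmst, known for its role in neurogenesis with Sox2, at 841 ± 224 (SD, n = 3) against 1342 ± 298 (SD, n = 3), and of Firre at 272 ± 48.4 against 358 ± 57.7. In Dp(16)1Yey/+ mice 20 were higher and 9 lower, 3 with an unadjusted p-value under 0.05 (median 0.14, against 0.03). They were led by A330008L17Rik at 173 ± 34.0 (SD, n = 4) against 121 ± 4.61 (SD, n = 4) and 1700020I14Rik at 1582 ± 297 against 1163 ± 54.4. The adjusted p-values were 1.00 and 0.909 in limma.

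Of a list of 9 other genes in or beside the Dlk1-Dio3 domain, 8 were tested. The counts and the median below thus include flanking genes and are not those of the domain alone. In 189N3 mice 6 were higher and 2 lower, and in Dp(16)1Yey/+ mice 2 were higher and 6 lower (median -0.25, against 0.03 over all loci). Dlk1, the paternally expressed Notch ligand, was close to the minimum mean of 10 for testing, at 23.4 ± 7.90 in 189N3 mice against 39.96 ± 5.76 (SD, n = 3), which is -0.80 on the log2 scale (SE 0.34, adjusted p = 1.00). Dio3, the thyroid hormone deiodinase, was also close to that minimum, at 12.8 ± 5.73 against 34.7 ± 27.5 in Dp(16)1Yey/+ mice. Its log2 fold change was -1.04 (SE 0.58, adjusted p = 0.909 in limma). The dynein heavy chain gene Dync1h1, beyond the end of the domain, had 0.32 (SE 0.23) in 189N3 and -0.47 (SE 0.23) in Dp(16)1Yey/+ mice. Of 12 genes around Kcnq1ot1, 8 were tested and 0 had an unadjusted p-value under 0.05 in either model. The channel gene Kcnq1 (0.45, SE 0.36) and Osbpl5 (0.16, SE 0.25) had the smallest p-values in 189N3 mice, and Trpm5 (-0.35, SE 0.24) and Osbpl5 (-0.40, SE 0.30) in Dp(16)1Yey/+ mice. In these comparisons the means of Kcnq1 (22.3 against 15.5) and Trpm5 (23.1 against 30.2) were low as well.

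Of 15 nuclear speckle genes, 0 in 189N3 and 1 in Dp(16)1Yey/+ mice had an unadjusted p-value under 0.05. This was Son, a scaffold protein of speckles encoded within the duplicated segment, at 22267 ± 4674 against 14816 ± 2586 (SD, n = 4; log2 fold change 0.58, SE 0.20, adjusted p = 0.909). Srrm2, the other scaffold, stood at 0.23 (SE 0.22) in 189N3 and -0.33 (SE 0.17) in Dp(16)1Yey/+ mice, and the splicing activator Rnps1 at 0.25 (SE 0.26) in 189N3. Of 16 paraspeckle protein genes none had an unadjusted p-value under 0.05. Sfpq (0.14, SE 0.23) and Cpsf6 (0.11, SE 0.21) led in 189N3, and Matr3 (0.27, SE 0.16) and Tardbp (0.21, SE 0.14) in Dp(16)1Yey/+ mice. There, 13 were higher and 3 lower, with a median of 0.10 against 0.03 over all loci. In 4 of the 16 all Dp(16)1Yey/+ libraries lay above all littermates, where 2.45% of all loci did not overlap in either direction. In that model 2 of 29 other long noncoding RNAs also lay above all littermates, 2 of 18 other imprinted genes below them, and 0 of 15 speckle genes either way. The littermates form nearly alike pairs, and the share of 2.45% was taken over these same libraries. The part of these pairs in such separations was not tested.

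Among 10 tested neighbours and partners of the members none had an unadjusted p-value under 0.05. Ralgapb, next to Snhg11, had 0.19 (SE 0.22) and the splicing regulator Celf3 0.25 (SE 0.31) in 189N3 mice. Fxr1, beside Sox2ot, had 0.30 (SE 0.17) in Dp(16)1Yey/+ mice. Of 18 other imprinted genes, 9 were higher and 9 lower in 189N3 mice, and 4 higher and 14 lower in Dp(16)1Yey/+ mice (median -0.23). The growth factor gene Igf2 had opposite signs, with -0.71 (SE 0.30) in 189N3 and 0.75 (SE 0.29) in Dp(16)1Yey/+ mice, neither past the adjusted threshold. Dcn had -0.46 (SE 0.30) in 189N3, and Zdbf2 -0.39 (SE 0.18) in Dp(16)1Yey/+ mice.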

How the data were processed

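Total RNA of embryonic hippocampus was sequenced as stranded paired-end libraries, though the labels list polyA RNA. The authors aligned reads to mm10 with Bowtie and TopHat, and assembled, merged and quantified transcripts with Cufflinks. The signal values deposited for each locus are its fragments over a size factor of the library, and those of isoforms are estimated from them, with correction for fragment bias and multiply mapped reads. Antisense and unknown loci, which the methods removed, are kept in the deposited tables. All nonzero values were whole multiples of a library's step (100%), which gave the fragments. Transcript numbers of the map from transcripts to names are shifted in stretches, so loci were matched by sums of isoforms. log2(value + 1) was tested with limma 3.58.1 (R 4.3.3), two-sided, moderated with a mean-dependent prior and without covariates, over loci with a mean of at least 10, Benjamini-Hochberg threshold 0.05. Ratios and members were tested by exact permutation (Python 3.11.15, SciPy 1.17.1). Alternatives included edgeR 4.0.16 and DESeq2 1.42.0. Members and lists were chosen with earlier results of these data known. Named were all members, isoforms with a mean of at least 10, the 3 most similar named loci and, per list, the 2 genes with the smallest p-values in each model, of which 1 is not reported here. The ratio of Neat1 to Malat1 was not analysed, leaving 4 of 6 planned ratio tests. No library was left out. Counting error limits low loci, such as Dlk1.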

Additional observations from a re-analysis of the deposited data

How the results depend on the processing

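The alternatives covered other pseudocounts, filters, normalizations, fits and tools, and each library left out. None of 496 values of the 8 loci under 26 alternatives passed the adjusted threshold (smallest adjusted p = 0.374), and 457 kept their direction. Counts of called loci rose from 0 in 189N3 mice to 3 with median-ratio size factors, 15 with DESeq2 and 72 with the replicate block, and to between 0 and 28 with 1 library left out, with 28 without 189N3 wild-type littermates replicate 1 and 2 without replicate 0 of that group. In Dp(16)1Yey/+ mice they rose to 8 with DESeq2 and to between 0 and 3 with 1 library left out (3 without Dp(16)1Yey replicate 1), and for the difference between models to between 0 and 1 (1 without Dp(16)1Yey replicate 1). Same-numbered libraries did not deviate together (r from -0.44 to -0.03). These deviations also carry differences in library composition, so they cannot show whether the replicate numbers of the labels pair samples.

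Of the sign changes some were of values near 0, while the locus overlapping Malat1 turned from 0.12 and, for the difference between models, from 0.30. Under edgeR, DESeq2 or quantile normalization, the values that turned were Miat in 189N3 (0.015 with edgeR, 0.033 with DESeq2), Sox2ot in 189N3 (-0.044 with quantile normalization, -0.0020 with edgeR), the locus overlapping Malat1 in Dp(16)1Yey/+ mice (-0.20) and its difference between models (-0.081, both with quantile normalization). The difference of Mirg was -0.030 with median-ratio size factors, -0.010 with quantile normalization, -0.044 with edgeR and -0.075 with DESeq2. The cause was not tested. With 1 library left out, log2 fold changes in 189N3 ranged from -0.18 to 0.081 for Meg3, -0.33 to 0.053 for Rian, -0.41 to 0.063 for Mirg, -0.37 to 0.23 for Miat, -0.34 to 0.30 for Snhg11, -0.083 to 0.095 for Sox2ot and -0.42 to 0.054 for the locus overlapping Kcnq1ot1. In Dp(16)1Yey/+ mice they ranged from -0.67 to -0.18 for Meg3, -0.43 to -0.13 for Rian, -0.24 to -0.11 for Mirg, -0.92 (without Dp(16)1Yey replicate 0) to -0.31 (without replicate 1) for Snhg11, 0.13 to 0.31 for Sox2ot, -0.047 to 0.27 for Miat, -0.0013 to 0.27 for the locus overlapping Malat1 and -0.15 to 0.14 for that overlapping Kcnq1ot1. Differences between models ranged from -0.35 to 0.038 for Rian, -0.25 to 0.22 for Mirg, -0.12 to 0.49 for Miat and -0.063 (without 189N3 replicate 2) to 0.41 for the locus overlapping Kcnq1ot1, against 0.23 with all libraries. The log2 ratio of Rian to Meg3 differed by -0.34 to 0.18 and -0.13 to 0.35 in the models, and that of Mirg to Meg3 by -0.29 to 0.18 and -0.060 to 0.49. The loci called with 1 library fewer rest on 5 or 7 libraries within a model and on 13 for the difference between models.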
